A study of Bos taurus with 72 samples.

Results

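This report describes 100 genes of bovine mammary epithelial cells (BMECs) whose RNA was highest in media holding leucine or valine as the only essential amino acid (EAA). The genes were chosen by their values in these libraries. Each of the 8643 Ensembl genes with a mean of at least 5 FPKM (fragments per kilobase, reads on a gene divided by its length and by a factor for the library) over 72 libraries was scored, and the 100 highest scores were taken. The score is the lower of the Leu and Val medians of log2(FPKM + 1) minus the highest median of the other 10 treatments. A score above 0 was reached by 974 genes, and the 100 genes had scores between 0.25 and 0.51 with a median of 0.31. The last genes inside the limit scored 0.2478, 0.2476 and 0.2462, and the first genes outside it 0.2454, 0.2451 and 0.2450, so the limit falls in a continuous series of scores. The high level in Leu and Val is therefore the rule itself and is given without a test.

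Primary BMECs from mammary tissue of healthy dairy cows were separated from fibroblasts by their sensitivity to trypsin, starved of serum overnight and kept for 6 h in 1 of 12 media with 6 replicates each. NEG was DMEM-F12 without any EAA, and POS was complete DMEM-F12. Leu, Val and Ile were NEG with leucine, valine or isoleucine added back alone, at its concentration in POS. The other single additions were arginine (Arg), histidine (His), lysine (Lys), methionine (Met), phenylalanine (Phe), threonine (Thr) and tryptophan (Trp), and all were L-forms. All groups are labelled as wild type and share the same time point, and no source ties a replicate to its own cow, so p-values measure the spread between these libraries. The table carries no gene symbols and none of its identifiers matched the bovine gene table at hand, so the functions of the 100 genes and the epithelial and fibroblast markers could not be read here.

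Leucine, isoleucine and valine are the branched-chain amino acids. They enter cells through shared transporters of large neutral amino acids and are first transaminated by the same aminotransferases, after which the branched-chain ketoacid dehydrogenase complex oxidizes them. Leucine is also known as an activator of mTORC1, the kinase complex that couples amino acid supply to protein synthesis. The lactating mammary gland takes up branched-chain amino acids beyond what it secretes in milk protein. The comparisons below ask how the 100 genes vary among media that the rule treated alike, above all in Ile and in POS, which holds all of these amino acids.

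Depth and the number of detected genes differed between libraries before any comparison. Reads on genes, recovered from the FPKM, ranged from 12006111 to 18602428 with a median of 15865509.5. Genes above 0 numbered 10495 in Leu_1, 11838 in Arg_4 and 13537 in POS_4, against 15211 to 18393 in the other 69 libraries. Val_3 had the highest number. The study's own statistics give Leu_1 and Arg_4 the lowest mapping efficiencies of all libraries, and Val_3 the lowest share of high-quality bases. The 100 genes had a median of 643 reads per library, 89 of them had at least 100 reads in every library, and 4 were at 0 in some library. Counts of the 100 genes that include Leu_1, Val_3, Arg_4 or POS_4 are given with and without them where they change. The differences of single genes are given with all libraries.

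The level of the 100 genes was expressed per library as the median over the genes of log2(FPKM + 1) minus the gene's own NEG median. It was 0.72, 0.95 and 1.63 in Leu (lowest, median and highest of 6 libraries) and 0.08, 1.00 and 1.05 in Val. In NEG it lay between −0.03 and 0.08. Leu did not overlap NEG, whereas Val overlapped NEG through Val_3 alone, since its other libraries lay between 0.90 and 1.05. Leu_1 stood above every other library. Over the 8643 scored genes the same measure was −0.44 in Leu_1, the lowest of the 72 libraries.

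**Figure D1:**
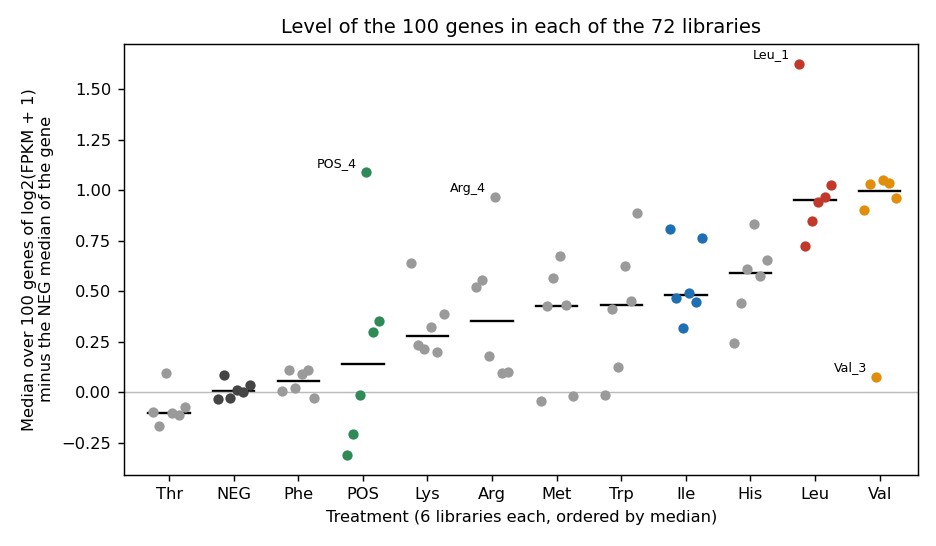
Each point is 1 library, placed by treatment on the x axis and by the median over the 100 genes of log2(FPKM + 1) minus the NEG median on the y axis, and black lines are medians of 6 libraries. Leu (red) and Val (orange) have medians of 0.95 and 1.00, with Leu_1 at 1.63 and Val_3 at 0.08. Libraries of other treatments reach the range of Leu: POS_4 at 1.09, Arg_4 at 0.97, Trp_6 at 0.89, His_4 at 0.83, Ile_1 at 0.81 and Ile_6 at 0.76.

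In reads, the 100 genes took 0.414% to 0.477% of all reads on genes in NEG, with a median of 0.444%. The share ranged from 0.797% to 1.64% in Leu (median 0.956%) and from 0.489% to 1.07% in Val (median 1.02%). In Ile it ranged from 0.612% to 0.829% with a median of 0.668%. Ile thus lay between NEG and the Leu libraries without overlapping NEG, and it overlapped the lowest Leu library. In a bulk sample, fewer cells of a type and less RNA per cell cannot be told apart.

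The gene with the highest score was ENSBTAG00000001435. Its FPKM was 14.8, 16.2 and 20.9 in NEG (lowest, median and highest), 26.7, 32.5 and 33.5 in Leu, and 15.3, 34.1 and 38.0 in Val. In Ile it was 19.9, 22.3 and 32.8, so that Ile overlapped both NEG and Leu. The mean was 31.3 ± 2.75 FPKM in Leu and 16.7 ± 2.21 in NEG (SD, n = 6). ENSBTAG00000009952 came next, with 9.08, 9.98 and 12.0 FPKM in NEG, 17.8, 22.5 and 54.0 in Leu, and 14.4, 23.6 and 27.2 in Val. Both Leu and Val lay above NEG in every library of that gene, although Leu_1 lay far above the next Leu library at 24.5 FPKM and Val_3 was the lowest of Val.

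The choice of the genes was tried under other settings. With a pseudocount of 0.1, 96 of the 100 genes were chosen again, and with libraries scaled by total reads 82 were. Without Leu_1 and Val_3, 82 of the 100 were chosen again, and all 100 kept a score above 0. Without Leu_1, Arg_4 and POS_4, 83 were chosen again and 99 kept a score above 0. Means in place of medians, which let single libraries weigh more, shared only 35 genes with the 100, although 96 of the 100 kept a score above 0.

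When the 100 genes were chosen anew without Leu_1 and Val_3, these libraries gave values that the scores had not used, although both still entered the filter on mean FPKM over 72 libraries. The level in Leu_1 was 1.59, and 91 of these 100 genes were there above the highest median of the other 10 treatments, as were 34.4% of the 8643 scored genes. The level in Val_3 was 0.098, with 3 of 100 genes above that median, against 15.4% of the scored genes. The other Leu libraries lay between 0.72 and 1.01, the other Val libraries between 0.89 and 1.03, and NEG between −0.03 and 0.09. The withheld Leu library, which also had the fewest genes above 0, thus had the higher share of the genes above that median, and the withheld Val library was close to NEG.

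Counts of genes whose libraries did not overlap between treatments are given beside the same count over all 8643 scored genes, and since the rule used these contrasts nothing is read from them. All 6 Leu libraries lay above all 6 NEG libraries for 87 of the 100 genes (20.1% of the scored genes), and for 89 (22.6%) without Leu_1 and Val_3. Val lay above NEG in the same way for 26 genes (5.91%), and for 96 (25.3%) without them. Against Ile, Leu was apart for 15 genes (2.81%). Val was apart from Ile for 1 gene (1.13%), and for 51 (12.8%) without Leu_1 and Val_3.

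Outside Leu and Val, the 100 genes did not share 1 level. The median over the genes of the treatment median minus the NEG median was 0.59 in His, 0.50 in Ile, 0.44 in Trp, 0.42 in Met, 0.32 in Arg and 0.28 in Lys, on the log2(FPKM + 1) scale. It was 0.16 in POS, 0.06 in Phe and −0.09 in Thr, against 0.96 in Leu and 0.98 in Val. Over the scored genes the same medians lay between −0.13 and −0.03 in the 11 treatments. Ile was above NEG for 100 genes, His and Trp for 99 each, Lys for 96, Arg for 94 and Met for 93. POS was above NEG for 63 genes, Phe for 59 and Thr for 23. Thr was thus the only medium with fewer than 50 of the 100 genes above NEG, and Phe and POS had the next lowest counts.

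**Figure D2:**
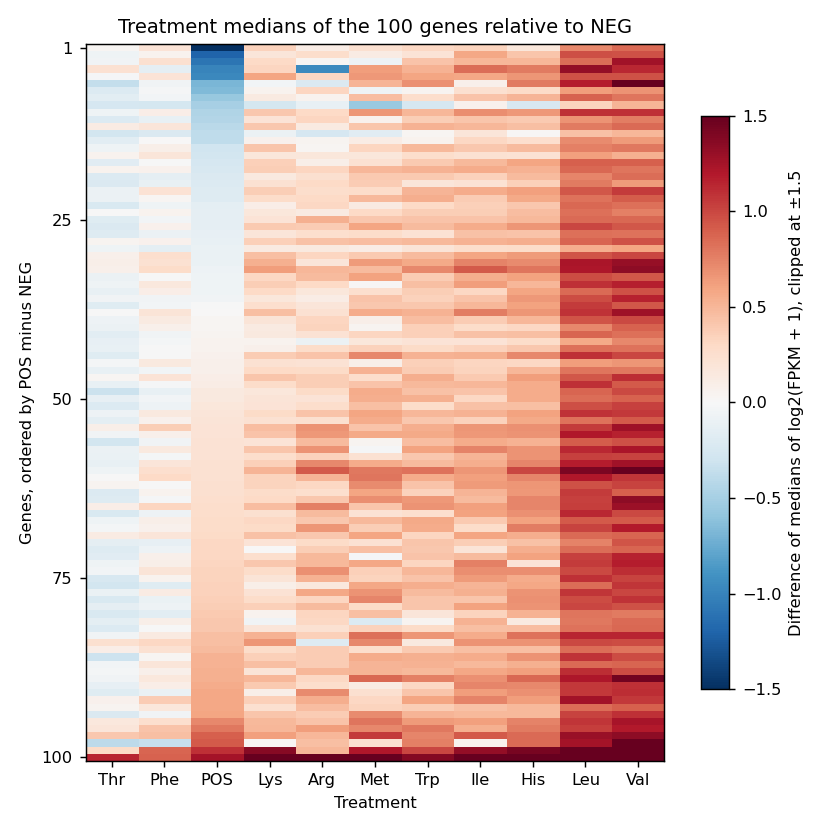
Each line of the map is 1 of the 100 genes, ordered by POS minus NEG, and each column is 1 treatment, with red for medians of log2(FPKM + 1) above NEG and blue for medians below. Leu and Val are red throughout, His and Ile are paler, Thr is pale blue for most genes, and POS runs from −1.63 at the top to 1.24 at the bottom.

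The treatment that came next after Leu and Val was His for 51 genes, Ile for 21, Met for 13, Arg and Trp for 5 each, POS for 4 and Lys for 1. Ile was among the 3 highest of the other 10 treatments for 68 genes. For the 21 genes with Ile next, the median difference from NEG was 0.64 in Ile, 0.52 in His and −0.08 in POS. For the 13 genes with Met next, it was 0.71 in Met, 0.56 in Ile and 0.35 in POS. The lowest of the 10 treatments was Thr for 57 genes, POS for 26 and NEG for 12. The subsets differ by construction in the treatment that defines them, and beyond it most clearly in POS.

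The genes also varied together in media that did not enter the rule as high. Over the 60 libraries outside Leu and Val, the correlation between a pair of the 100 genes had a median of 0.73, against 0.015 for pairs of the 8643 scored genes. Without Arg_4 and POS_4, an alternative added after the data were seen, these medians were 0.74 and 0.0044. This is a description over 60 libraries that share their depth and scaling, and the highest median of the 10 treatments entered the rule. By limma's F test on log2(FPKM + 1), 95 of the 100 genes varied among the 10 treatments at a Benjamini-Hochberg adjusted p under 0.05, with a background of 83.9% of the 12121 genes with a mean of at least 1 FPKM. Without NEG_2, POS_4 and Arg_4, 99 did and the background was 93.0%, so such variation was common to most genes.

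In length and abundance the 100 genes lay within the range of the scored genes. Their median length, recovered from the FPKM, was 2815.5 bp (65 to 10518 bp), against 2387 bp for the scored genes. Their mean FPKM had a median of 15.7 (5.37 to 154), against 17.4. These ranges are descriptions and were not tested.

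Isoleucine, the remaining branched-chain amino acid, was compared first with NEG, in which no EAA was present. With Ile, 89 of the 100 genes rose and 0 fell by limma with Benjamini-Hochberg adjusted p under 0.05, and the background was 15.8% of 12121 genes for higher and 25.1% for lower calls. The median log2 difference was 0.55 over the 100 genes and −0.05 over all genes tested. Both media could enter the score as the highest of the other 10 treatments, and Ile did so for 21 genes and NEG for 0. By medians, His, Trp, Lys, Arg and Met also lay above NEG for 93 to 99 of the genes, and POS, Phe and Thr for 23 to 63. The 89 genes that rose did so by 0.23 to 1.41, and the other 11 had differences between −0.06 and 0.72. ENSBTAG00000004999 had 4.82, 5.05 and 5.77 FPKM in NEG (lowest, median and highest) and 9.35, 10.4 and 10.7 in Ile, with no overlap. Its log2 difference was 0.85 ± 0.075 (SE, n = 6 per treatment; limma adjusted p = 8.3e-05). ENSBTAG00000014158 rose from a range of 9.21 to 9.85 FPKM in NEG to 15.2 to 20.3 in Ile, by 0.80 ± 0.080 (limma adjusted p = 0.00016). In Leu these genes had medians of 13.1 and 21.7 FPKM, and in Val 14.3 and 24.7, above Ile as the rule requires.

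Leaving out single libraries left between 79 and 91 of the 100 genes called in Ile, while the background of higher calls moved between 11.8% and 20.1%. The number of genes above 0 had medians of 17329 in NEG and 16842.5 in Ile. With it as a covariate, an alternative chosen after the data were seen, 69 were called higher (background 14.2%) and the median difference was 0.43. The pseudocount of 1 makes a difference look smaller for genes of low FPKM, and with 0.1 the median difference was 0.58. Of the 100 genes, 1 passed the fold limit of 2 that the study's methods name, a rise. In that direction 0.363% of all genes tested passed it.

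The second comparison set isoleucine against the mean of the other single EAA, which does not ask whether it stood apart from each of them. Relative to NEG, the median over the genes was 0.59 in His and 0.50 in Ile. It was 0.06 in Phe and −0.09 in Thr, which lower that mean. Against the mean of Arg, His, Lys, Met, Phe, Thr and Trp, 29 of the 100 genes were higher in Ile and 0 were lower by limma with adjusted p under 0.05. The background was 6.95% of 12121 genes for higher and 6.76% for lower calls. The median difference was 0.26 over the 100 genes and −0.01 over all genes tested, and 98 of the 100 had a difference above 0. ENSBTAG00000016644, named here for its fall in POS, was among the 29 genes, with 11.7, 12.3 and 15.9 FPKM in Ile and a difference of 0.46 ± 0.097 (limma adjusted p = 0.0010, SE over 48 libraries). The count moved with single libraries, and the background moved with it. It was 12 without Ile_6 (background 4.83%), 13 without Ile_1 (3.46%) and 47 without Arg_4 (11%). Ile_1 and Ile_6 had the highest levels of the 100 genes in Ile, at 0.81 and 0.76, and the other 4 lay between 0.32 and 0.49. With the number of genes above 0 as a covariate the count was 32 and the median difference 0.15, while the background rose to 15.7%.

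The gap between the lower of the Leu and Val medians and the Ile median ran from 0.25 to 1.19 with a median of 0.39, and is fixed above 0 by the rule. The same rule was applied to the other pairs of branched-chain amino acids. Leu and Val together gave a score above 0 for 974 genes (11.3% of 8643), Ile and Leu for 172 (1.99%), and Ile and Val for 52 (0.602%). The highest score was 0.86 for Ile and Leu and 0.19 for Ile and Val. None of the 100 genes was among the 100 highest of the other pairs, as the construction of the score demands. Without Leu_1 and Val_3 the numbers were 953, 169 and 58, in the same order.

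Complete medium holds leucine and valine along with all other EAA. The rule keeps the POS median of each gene below those of Leu and Val, which passes over genes with a strong rise in POS, so nothing is read from a low count of rises. Against NEG, 14 of the 100 genes rose in POS (background 14.3% of 12121 genes) and 10 fell (18.5%), by limma with adjusted p under 0.05. The other 76 of the 100 genes were not called. The differences ran from −1.36 to 1.51 with a median of 0.25, against −0.06 over all genes tested. The lower of the Leu and Val medians was above the POS median by 0.25 to 2.34, with a median of 0.79.

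ENSBTAG00000003064 rose from 5.59, 6.05 and 7.40 FPKM in NEG to 8.80, 12.3 and 20.7 in POS, with no overlap. The difference was 0.92 ± 0.19 (SE; limma adjusted p = 0.0028), and in Ile it was 0.92 ± 0.092. ENSBTAG00000000565, the last gene inside the limit of the rule, had 5.40 to 8.52 FPKM in NEG and 8.23 to 26.8 in POS, which overlapped (0.87 ± 0.22, limma adjusted p = 0.0098). In the other direction, ENSBTAG00000016644 fell from 7.30, 7.89 and 8.53 FPKM in NEG to 1.95, 2.87 and 5.51 in POS, with no overlap (−1.19 ± 0.17, limma adjusted p = 0.00024).

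ENSBTAG00000010909 had the highest mean level of the 100 genes, 154 FPKM over the 72 libraries. It had 81.2, 126 and 138 FPKM in NEG and 152, 159 and 186 in Ile, with no overlap. In POS it had 29.8 to 120 FPKM, where POS_4 was the highest and overlapped NEG, and the other 5 POS libraries were at or below 43.2. Leu had 196, 207 and 558 FPKM, with Leu_1 at the top, and Val had 122, 227 and 239. The fall in POS was −1.36 ± 0.28 (SE; limma adjusted p = 0.0030), and the difference in Ile was 0.46 ± 0.12 (limma adjusted p = 0.0090). Against the mean of the other 7 single EAA, Ile differed by 0.16 ± 0.099 (limma adjusted p = 0.29), a difference that did not pass the test. This abundant gene thus rose in Ile and fell in POS.

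**Figure D3:**
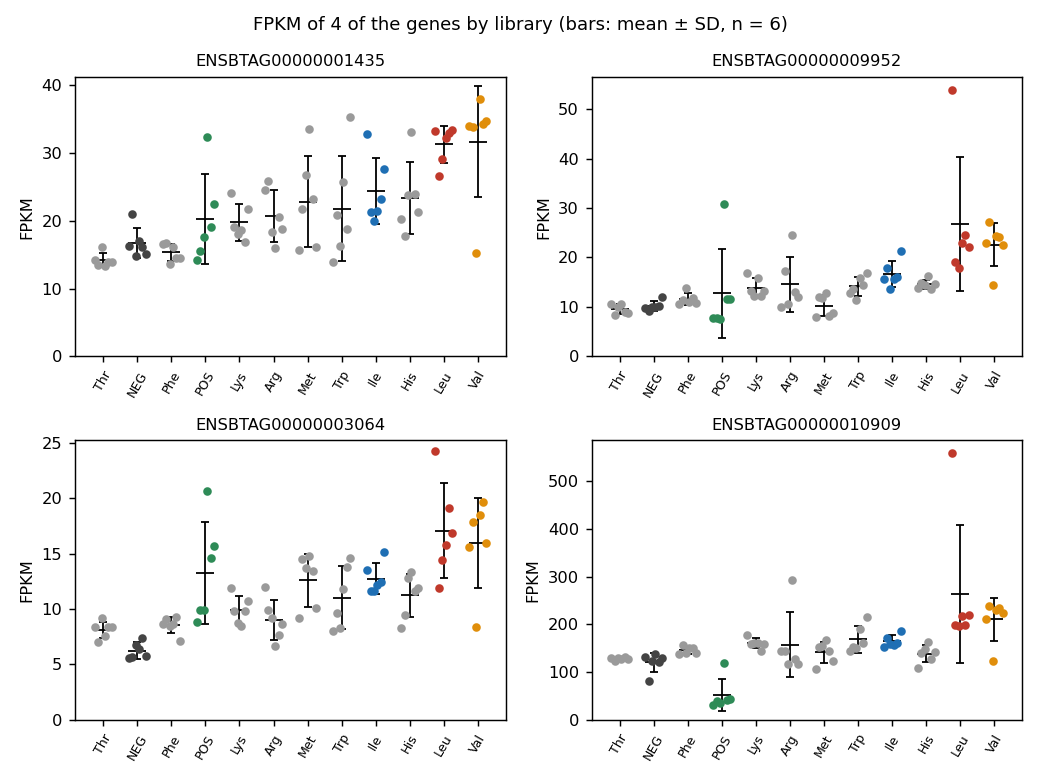
Points are the FPKM of single libraries by treatment for 4 of the 100 genes, and bars give the mean ± SD of 6 libraries. Leu and Val are highest by their medians in each panel, Val_3 is the lowest Val library in each, POS lies above NEG for ENSBTAG00000003064, and 5 of 6 POS libraries lie below NEG for ENSBTAG00000010909 at 29.8 to 43.2 FPKM.

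Ile and POS were compared with the same NEG libraries, so their values are set side by side without a test.

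**Figure D4:**
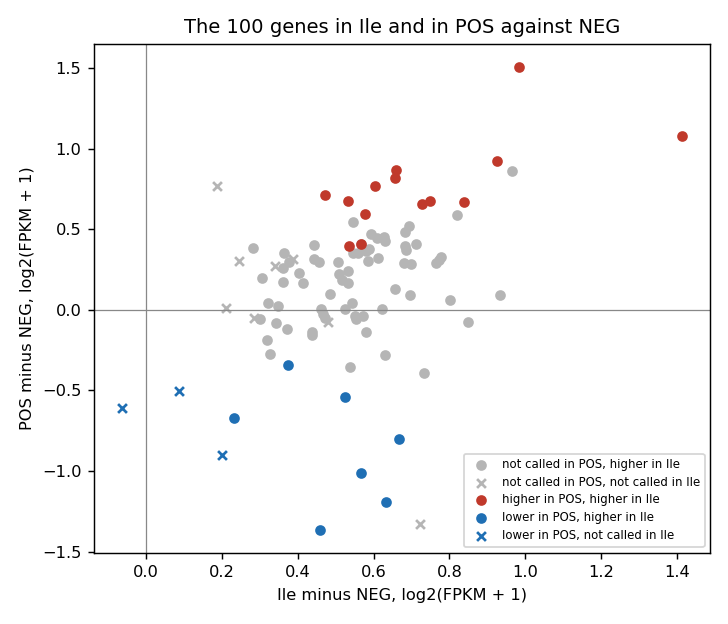
Each symbol is 1 of the 100 genes, with the log2 difference Ile minus NEG on the x axis and POS minus NEG on the y axis. Circles are the 89 genes called higher in Ile, crosses are the other 11, red marks the 14 genes higher in POS, blue the 10 lower and grey the 76 not called. The points spread from −0.06 to 1.41 along x and from −1.36 to 1.51 along y.

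The POS libraries were uneven. The level of the 100 genes was 1.09 in POS_4, 0.30 and 0.35 in POS_5 and POS_6, and −0.31, −0.21 and −0.01 in POS_1, POS_2 and POS_3. Without NEG_2 and POS_4, 16 of the 100 genes rose (background 22.4%) and 17 fell (25.8%), and the median difference was 0.03. With libraries scaled by total reads, 18 rose (background 20.2%) and 4 fell (13.9%), so the balance of the directions depended on the scaling, which moved the median of the tested genes by between −0.23 in NEG_2 and 0.11 in POS_6. The count of 24 genes in both directions, with a background of 32.7%, fell to 14 without NEG_1, POS_5 or POS_6, and to 13 without NEG_3, NEG_5 or NEG_6, where the background was 25.2% to 27.1%. It was 29 without POS_4 (background 41.6%).

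Leu and Val were compared with each other. The rule does not use the sign of their difference, but by scoring the lower of both medians it passes over genes with a wide gap between them. Few differences among the 100 genes are thus favoured by the choice, and nothing is read from counts below the background. None of the 100 genes differed by limma at an adjusted p under 0.05, and 0.322% of the 12121 genes did. At an unadjusted p under 0.05, 1 of the 100 genes differed, with 10.6% over all genes tested, and voom on the recovered reads called 0 (0.272%). The differences Leu minus Val ran from −0.64 to 0.61 with a median of 0.16. The SE of a single gene had a median of 0.22, which does not measure the spread of the median over the genes. Without Leu_1 and Val_3, 16 of the 100 genes were lower in Leu than in Val, with a background of 15.6% in that direction, 0 were higher (21.5%), and the median difference turned to −0.11. By medians over 6 libraries, Leu was above Val for 36 of the 100 genes, with differences between −0.48 and 0.19. The direction between Leu and Val thus changed with these libraries and with the statistic used.

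The level of the 100 genes moved with the number of genes above 0 in a library. Over the 72 libraries Pearson's r was −0.72 and Spearman's rho −0.83, and without the most distant libraries, Leu_1 and Arg_4, they were −0.74 and −0.82. Over the 60 libraries outside Leu and Val they were −0.75 and −0.84. For deviations from the treatment means they were −0.77 and −0.75, and r was negative within 11 of the 12 treatments, Phe being the exception at 0.39. Both measures come from the same reads and share depth and scaling, so these values are descriptions. The part of the number of detected genes in the results above was not tested beyond its use as a covariate. With it, 13 of the 100 genes were higher and 14 lower for POS against NEG, where 19.0% and 22.7% of all genes tested were. For Leu against Val 3 were lower, where 11.2% of all genes were.

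**Figure D5:**
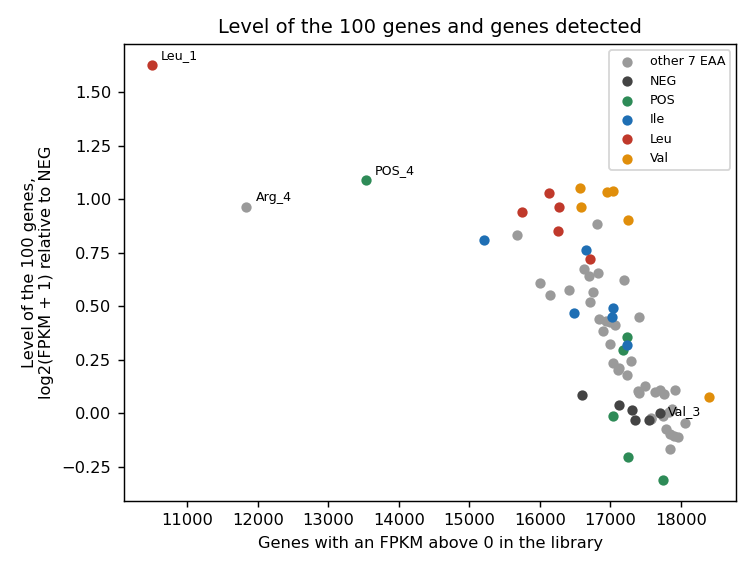
Each point is 1 of the 72 libraries, with the number of genes above 0 FPKM on the x axis and the level of the 100 genes on the log2(FPKM + 1) scale relative to NEG on the y axis. Libraries with fewer genes above 0 lie higher (r = −0.72), from Leu_1 with 10495 genes and a level of 1.63 to Val_3 with 18393 genes and a level of 0.08.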

How the data were processed

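RNA-seq of 72 BMEC libraries was used. The authors trimmed reads with Trimmomatic, and the submitters' processing notes name HISAT2 (2.0.5), StringTie (1.3.3b), featureCounts (1.5.0-p3) and DESeq2 (1.20.0). No source used here gives the genome build. The sources name different library kits and culture plates, which all libraries share. The values deposited by the authors are FPKM for 29550 genes, 27570 with Ensembl identifiers, and each column was assigned by its name. Whole reads were recovered from the FPKM, with 100.0% of values above 0 within 0.001 of a whole number. The deposited FPKM already carry a median-of-ratios scaling, so a scaling by total reads was tried beside it. Reads are not independent molecules, since PCR copies were not marked.

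The 100 genes and all lists were chosen with earlier results of these data known. Tests used limma (3.58.1, R 4.3.3) on log2(FPKM + 1), a pseudocount of 1, with the prior variance trended on the level. The 12121 genes whose mean reached 1 FPKM were tested, with Benjamini-Hochberg adjustment over all of them. Only the treatments compared entered a fit, and the F test used 60 libraries. Tests were checked on simulated data. Tables used Python (3.11.15), numpy (2.4.6) and pandas (2.3.3), and figures matplotlib (3.10.9). Alternatives were a pseudocount of 0.1, no filter, total reads, the replicate number as a block, the limits in the study's methods, voom, sample weights, 1 fit of all treatments and each library left out. The number of genes above 0 as a covariate and the removal of several libraries together other than Leu_1 with Val_3 were, for the counts, added after the data were seen.

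None of the identifiers matched the 37063 genes of the bovine reference table, so planned gene lists, cell type markers and promoter motifs were not run and no sequence is shown. The named identifiers are the highest 2 scores and, among genes called for Ile or POS against NEG, the 2 smallest p in each direction.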

Additional observations from a re-analysis of the deposited data

Results flagged for a closer look

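Of 32 groups of 6 libraries tested for a library far from the rest, 10 held one by Dixon's criterion (the gap to the nearest library over the range of the group). Chance gives about 1.6 in independent groups. These were not independent, since the same libraries were tested for the level and again for several genes. The level of the 100 genes was 1.63 in Leu_1, against 1.03 in the next Leu library. It was 0.0756 in Val_3, where the nearest Val library had 0.905. In Thr_3 it was 0.0972, and the nearest Thr library had −0.0731.

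Single genes set Leu_1 and Val_3 apart again, and also NEG_2 and POS_4, while Thr was not among the groups tested for single genes. ENSBTAG00000001435 had 15.3 FPKM in Val_3 (nearest 33.8) and 20.9 in NEG_2 (nearest 17.0). ENSBTAG00000009952 had 54.0 FPKM in Leu_1 (nearest 24.5) and 14.4 in Val_3 (nearest 22.6). In POS_4, ENSBTAG00000016644 had 5.51 FPKM (nearest 3.02) and ENSBTAG00000010909 had 120 (nearest 43.2). ENSBTAG00000010909 also had 81.2 FPKM in NEG_2, where the nearest NEG library had 122.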

How the results depend on the processing

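The counts of the 100 genes called kept within 1.5 times their value under most alternatives. Under the limits of the study's methods (unadjusted p under 0.05 and a log2 difference over 1), the counts were 1 for Ile against NEG, 0 for Ile against the other single EAA and 6 for POS against NEG, with 1.58%, 0.116% and 10.4% of all genes tested. Sample weights gave 57, 63 and 16 for Ile against the other single EAA, POS against NEG and Leu against Val, where 29.3%, 70.6% and 40.4% of all genes tested were called. One fit of all treatments gave 10 for Ile against the other single EAA (6.53% of all genes), and no filter on low FPKM gave 15 for POS against NEG (18.8%). Leu against Val gave 16 without Leu_1 and Val_3 (median difference −0.11, 37.1% of all genes called) and 3 with genes above 0 as a covariate (31.7%). Means in place of medians shared 35 genes with the rule. The cause of these changes was not tested. With each library left out, the counts ranged from 79 to 91 (Ile against NEG), 12 to 47 (Ile against the other single EAA), 13 to 29 (POS against NEG), 0 to 0 (Leu against Val) and 94 to 98 (the 10 treatments), and 83 to 92 genes were shared with the rule. The share of all genes called moved from 32.6% to 48.3%, 6.65% to 22.7%, 25.2% to 41.6%, 0.0495% to 5.92% and 80.9% to 90.0% in the same order. The 52 tests of named genes against NEG under other settings kept their direction and an adjusted p under 0.05, and the 4 scores stayed above 0. Those settings held neither the fold limit of the study's methods nor the fits with single libraries left out. Each gene was followed only in the comparison that named it, so Ile against the other single EAA was not among these tests.

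Replicate numbers were not treated as pairs in the main fits, since not every pair of equal numbers correlated over 0.1. Whether they pair the libraries was not tested, as unequal numbers were not compared. Of 6 pairs, 3 were over 0.1 for Ile and NEG, and 1 each for POS and NEG and for Leu and Val. The correlations ran from −0.24 to 0.18 for Ile and NEG, −0.10 to 0.27 for POS and NEG and −0.28 to 0.45 for Leu and Val, and from −0.70 to 0.81 among the other 10 treatments, where 94 of 270 pairs were over 0.1. With a replicate block the counts were 81, 29, 18, 0 and 97 in the order above, all within 1.5 times, with 34.3%, 13.6%, 29.0%, 0.0248% and 86.2% of all genes called.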
